A study of Mus musculus with 4 samples.

Results

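A small set of spleen CD8 T cells carried RNA of at least 2 of the 4 genes Pou2af1, Myb, Sox4 and Izumo1r. Cells of the spleen libraries were taken where Cd8a or Cd8b1 had a value above 0 and at least 2 of these 4 markers did. This chose 77 of 2913 spleen CD8 cells, in a study of 6965 cells from spleen and tumour. They are called multi-marker cells here, and the remaining 2836 spleen CD8 cells are called other CD8 cells. The cells were thus chosen by measured values of the 4 markers, Cd8a and Cd8b1, so these values are described and support nothing.

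The study asked how CD8 T cells that lack CD137, a costimulatory receptor encoded by Tnfrsf9, differ from cells that have it in mice with a melanoma. C57BL/6 recipients were irradiated with 8 Gray and received bone marrow from Cd4creCd137fl/flROSA26tomato and Cd137fl/flROSA26tomato donors, and reconstitution was checked after 7 weeks. B16K1 melanoma cells were then placed under the skin, and both spleen and tumour CD8 T cells were sorted on day 21 and sequenced by droplet single-cell RNA-seq from the 5′ end. There are 4 libraries, each pooling hashtagged cells of 7 mice: spleen CD137 minus, spleen CD137 plus, tumour CD137 minus and tumour CD137 plus. In the CD137 minus cells the Cre recombinase runs from the Cd4 promoter, so the gene is removed in cells that express or once expressed Cd4, CD8 T cells among them. The CD137 plus cells come from donors with the floxed gene and no Cre, so loss of CD137 cannot be told apart from the Cre or the donor. The protocol calls tomato-positive cells CD137 minus while the source names call them tomato negative, so the groups rest on the labelled CD137 status alone. The table names no mouse for a cell and each group is 1 library, so no test between groups or cell sets was possible. Whether recipient cells entered either sort was not tested.

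CD8 T cells leave the thymus as recent thymic emigrants and mature further in the periphery, where they gain the interleukin-7 receptor and lose CD24. Mature naive cells recirculate through lymphoid organs under Klf2 and S1pr1. Antigen-experienced CD8 cells include short-lived effectors, memory cells and stem-like progenitors that keep Tcf7 and Slamf6 and renew the response. Myb is a transcription factor needed in thymocyte development and in stem-like CD8 cells. Sox4 is a transcription factor of early lymphocytes. Pou2af1 is a coactivator of octamer-binding factors that is best known from B cells. Izumo1r encodes folate receptor 4, a surface protein known from regulatory and anergic T cells. In the mm10 build Pou2af1 lies on chromosome 9 from 51213708 to 51240080 on the plus strand. Izumo1r lies on the same chromosome from 14885814 to 14903949 on the minus strand. Myb lies on chromosome 10 from 21124935 to 21160984 on the minus strand, and Sox4 on chromosome 13 from 28948919 to 28953713 on the minus strand.

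The deposited values are natural logs of 1 plus a whole number, and these whole numbers, read as counts corrected to a common depth, are called corrected counts. Median corrected totals per cell were 3973 in the spleen CD137 minus library and 5344 in the spleen CD137 plus library, over 2464 and 473 cells. A CD8 value was present in 2444 of the 2464 CD137 minus spleen cells and in 469 of the 473 CD137 plus spleen cells, so the labelled cell type was borne by 99.2% of cells in each. Barcodes seen in more than 1 library numbered 19, of which 3 were in both spleen libraries, and 1 multi-marker cell had its barcode in another library. Tnfrsf9, the targeted gene, was at 2 corrected counts or 7.60 CPM in CD137 minus multi-marker cells and at 2.22 CPM in other CD137 minus cells. It was at 4 corrected counts or 52.6 CPM in CD137 plus multi-marker cells and at 14.8 CPM in other CD137 plus cells. CPM is the sum over the cells of a set scaled to 1000000. The sources used here do not state which part of the gene the floxed allele removes, so a residual 5′ count is no check of the deletion.

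Multi-marker cells took similar small shares of both spleen libraries. They were 63 of 2444 CD8 cells in the CD137 minus spleen, 2.58% with an exact Clopper-Pearson 95% interval of 1.99 to 3.29%. They were 14 of 469 in the CD137 plus spleen, 2.99% with an interval of 1.64 to 4.96%. The intervals cover counting error only, and they overlap. The CD137 plus library is deeper, so each cell was also thinned at random to 3100 corrected counts; no cell was shallower. The share was then 1.65% (1.18 to 2.24%) in the CD137 minus spleen and 1.71% (0.742 to 3.35%) in the CD137 plus spleen. With 1 library a group, whether the share differs between CD137 minus and CD137 plus cannot be tested. The sorted libraries hold no abundant cell type that lacks these genes, so the share that free RNA gives was not measured.

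Most multi-marker cells met the limit with no marker to spare. In the CD137 minus spleen 48 CD8 cells had 2 markers, 12 had 3 and 3 had all 4, while just outside the limit 371 had 1 marker and 2010 had none. In the CD137 plus spleen 13 had 2 markers and 1 had 3, while 75 had 1 and 380 had none. Izumo1r was present in 58 of the 77 cells, Myb in 56, Pou2af1 in 30 and Sox4 in 29. The commonest combination was Myb with Izumo1r, in 26 cells, followed by Sox4 with Izumo1r in 12 cells and Pou2af1 with Myb in 8. All 6 pairs of markers and all 4 triples occurred.

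**Figure D1:**
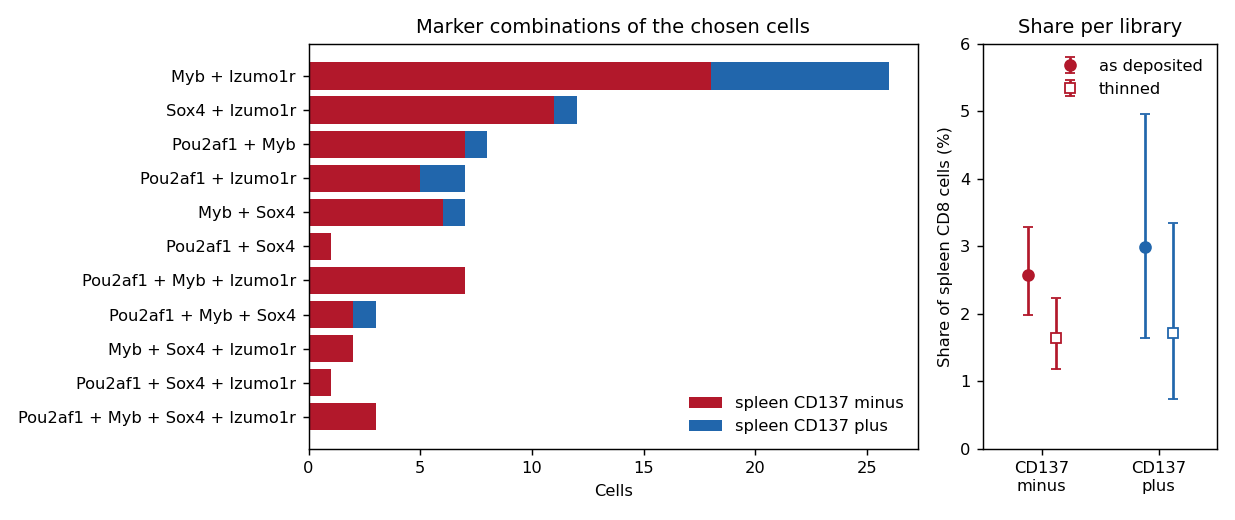
Left, number of multi-marker cells with each combination of the 4 markers, with spleen CD137 minus cells and then spleen CD137 plus cells stacked in each bar. Right, their share of spleen CD8 cells (%) in each library as deposited (filled circles) and after thinning to 3100 corrected counts (open squares), with exact 95% intervals for counting error. Myb with Izumo1r leads with 26 cells, and the shares of 2.58% and 2.99% have overlapping intervals.

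In the CD137 minus spleen each marker was found in a larger share of cells that had another marker than of cells that did not. Among CD137 minus spleen CD8 cells, Pou2af1 had a value in 2.66%, Myb in 5.73%, Sox4 in 2.66% and Izumo1r in 10.0%. Of the 65 cells with Pou2af1, 19 also had Myb, or 29.2% (18.6 to 41.8%), against 121 of 2379 cells without Pou2af1, or 5.09% (4.24 to 6.05%). Cells with Pou2af1 also had more genes per cell, with a median of 1572 against 1321. Depth differed less for Sox4, whose cells had a median of 1402 genes against 1325 in cells without it. Of the 65 cells with Sox4, 26.2% had Izumo1r, against 9.58% of cells without Sox4. Of the same 65 cells 13 had Myb, against 127 of 2379 cells without Sox4, or 5.34%. In the CD137 plus spleen there were 13 cells with Pou2af1 and 11 with Sox4, and the intervals of these pairs overlapped between cells with and without the marker. For Sox4 and Izumo1r the shares there ran the other way, with Izumo1r in 9.09% of cells with Sox4 and 10.9% of cells without.

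In the chosen cells the markers reached the levels that follow from the choice. Pou2af1 was at 125 CPM in CD137 minus multi-marker cells and at 4.75 CPM in other cells of that library, and at 65.7 and 3.80 CPM in the same 2 sets of the CD137 plus library. Myb was at 243 CPM in multi-marker cells and 13.2 CPM in others of the CD137 minus library, and at 197 and 10.6 CPM in the CD137 plus library. Sox4 was at 163 CPM in multi-marker cells and 4.85 CPM in others of the CD137 minus library, and at 52.6 and 4.22 CPM in the CD137 plus library. Izumo1r also had a value in 8.32% of other CD137 minus cells, more than any of the 3 other markers. It was at 353 CPM in multi-marker cells and 28.1 CPM in others of the CD137 minus library, and at 434 and 27.9 CPM in the CD137 plus library.

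Multi-marker cells held more genes per cell than other CD8 cells. The median was 1555 genes in multi-marker cells and 1321 in others of the CD137 minus spleen, and 1857 and 1619 in the CD137 plus spleen. Corrected totals were closer, with medians of 4240 and 3956 in the CD137 minus spleen and 5535 and 5325 in the CD137 plus spleen. For each gene the multi-marker cells' sum was therefore set against the sum expected from the other cells of the same library, and again after weighting the other cells to the multi-marker cells' genes per cell. The part of genes per cell in a ratio beyond this weighting was not tested.

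Of 2206 genes measured, with a mean of multi-marker and other cells of at least 50 CPM in each library, 406 (18.4%) were higher and 92 (4.17%) lower in multi-marker cells by at least 0.5 on the log2 scale. The median gene was at a log2 ratio of 0.18, so most measured genes had a positive ratio. Relative to that median the split was 190 higher (8.61%) and 199 lower (9.02%). With the weighting for genes per cell it was 212 higher and 133 lower. The filter takes in the multi-marker cells' own level, so a gene can pass by being high in them or miss by being low. Eomes, at 33.6 and 45.2 CPM in other CD137 minus and CD137 plus cells, passed in this way. So did Mrps6, Ephx1, Egr1, Tox, H2-Oa, Odc1, H2-Ob and Trp53inp1, which are named below as higher. Each was below 50 CPM in other cells of both libraries. Their place among the named genes thus depends in part on the filter. Higher and lower genes numbered 1221 and 209 with a filter of 20 CPM, and 117 and 44 with 100 CPM. The part of the filter in the split was not tested. Each library alone passed the same size in the same direction for 203 of the 406 higher genes and 45 of the 92 lower ones. These are calls by size, since 1 library a group gives no test, and they rest on 263329 corrected counts in the CD137 minus multi-marker cells and 76069 in the CD137 plus ones.

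The largest higher gene by the naming rule was Eomes, a T-box transcription factor of memory and stem-like CD8 cells. It was at 186 CPM in multi-marker cells and 33.6 CPM in others of the CD137 minus spleen, and at 158 and 45.2 CPM in the CD137 plus spleen, a log2 ratio of 2.28 (1.90 to 2.64, counting error). A value was present in 31.7% of CD137 minus multi-marker cells and 10.6% of others, or 23.8% and 8.69% after thinning, so most multi-marker cells of that library had none. Ctla2a, which encodes a cysteine protease inhibitor and has a near-identical copy that can share its reads, was at 630 and 138 CPM in multi-marker and other cells of the CD137 minus spleen. It was at 552 and 186 CPM in the CD137 plus spleen, with a log2 ratio of 2.03. Slamf6, a surface receptor of stem-like T cells, was at 289 and 105 CPM in the CD137 minus spleen and at 223 and 79.8 CPM in the CD137 plus spleen, with a log2 ratio of 1.46 (1.15 to 1.75). A Slamf6 value was present in 65.1% of CD137 minus multi-marker cells and 31.0% of others, or 57.1% and 24.8% after thinning.

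Tox, a nuclear factor needed for thymocyte selection and for persistence of chronically stimulated CD8 cells, was at 110 and 27.9 CPM in multi-marker and other CD137 minus cells and at 118 and 44.8 CPM in CD137 plus cells. Its log2 ratio was 1.79. Egr1, an immediate-early gene of T cell receptor signalling, was at 91.1 and 36.7 CPM in the CD137 minus spleen and at 171 and 40.1 CPM in the CD137 plus spleen. Egr1 thus stood higher in multi-marker cells of both libraries, with a log2 ratio of 1.52. The remaining genes named as higher were Mrps6, a mitochondrial ribosomal protein gene (1.71), Ephx1, an epoxide hydrolase (1.53), and Odc1, the first enzyme of polyamine synthesis (1.59). With them were Gpr183, an oxysterol receptor that guides lymphocyte position (1.48), and Trp53inp1, a stress-response gene (1.39). H2-Oa (1.54) and H2-Ob (1.60), which encode the 2 chains of a protein that moderates MHC class II peptide loading, completed the 12.

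Markers of other cell types were measured beside these genes. Of 11 B cell markers with a column, 2 were abundant enough to be measured, and of these Cd74 was lower (-0.61) and none was higher. Over cells with 0, 1, 2 and 3 or 4 markers Cd74 was at 69.6, 199, 71.2 and 0 CPM in the CD137 minus spleen. In the CD137 plus spleen it was at 54.9, 278, 85.4 and 0 CPM. The lower call is thus against a set that includes the Cd74-rich cells with 1 marker. In the CD137 minus spleen these cells also held the most Cd79a and Siglech, at 26.7 and 13.3 CPM. In multi-marker cells 5 of the 11 were at 0, namely Cd79a, Ms4a1, Igkc, H2-Eb1 and Ebf1. For H2-Eb1 6.37 corrected counts would be expected from other cells, and for Cd79a, Ms4a1, Igkc and Ebf1 between 0.361 and 1.67, so these 4 zeros show little. The summed level of the list was 349 CPM in multi-marker cells and 474 CPM in others of the CD137 minus spleen, and 355 and 381 CPM in the CD137 plus spleen. The part of B cell RNA in the levels of Pou2af1, H2-Oa and H2-Ob was not tested. Markers of dendritic cells summed to 304 and 322 CPM in the CD137 minus spleen and to 223 and 360 CPM in the CD137 plus spleen, with 3 of 8 at 0 in multi-marker cells. Markers of CD4 and regulatory T cells summed to 118 and 93.4 CPM and to 118 and 90.4 CPM in the same order of sets and libraries, with Foxp3 at 0 and Cd4 at 1 corrected count. Of markers of gamma-delta T, NKT and NK cells 5 of 7 were at 0 in multi-marker cells, and the list summed to 0 and 42.9 CPM in the CD137 minus spleen and to 52.6 and 74.7 CPM in the CD137 plus spleen. The 3 macrophage and 6 erythroid or progenitor markers in the table were at 0 in multi-marker cells and also summed to at most 0.739 CPM in other cells, so they tell the sets apart in neither library. Leaving out every cell with a value of a defining marker of another type kept 75 of the 77 cells and gave 426 higher and 95 lower genes.

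Of the 12 genes named as lower, Ccl5, a chemokine of memory and effector CD8 cells, had the lowest ratio. It was at 478 CPM in multi-marker cells and 2553 CPM in others of the CD137 minus spleen, and at 1288 and 7294 CPM in the CD137 plus spleen, a log2 ratio of -2.45 (-2.65 to -2.26). The difference lay in level more than in presence, with a value in 38.1% of CD137 minus multi-marker cells and 48.1% of others, or 34.9% and 43.9% after thinning. Il7r, the interleukin-7 receptor chain that naive and memory cells need for survival, was at 144 and 324 CPM in the CD137 minus spleen and at 118 and 323 CPM in the CD137 plus spleen. Its log2 ratio was -1.22 (-1.66 to -0.81), and 27.0% of CD137 minus multi-marker cells had a value against 56.5% of others, or 27.0% and 49.5% after thinning. Igfbp4, an insulin-like growth factor binding protein abundant in naive CD8 cells, was at 79.7 and 215 CPM in the CD137 minus spleen. In the CD137 plus spleen it was at 0 in multi-marker cells and 137 CPM in others, at least 3.47-fold lower against a floor of 3 corrected counts.

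Cd7, a T cell surface protein, was at 68.4 and 231 CPM in multi-marker and other cells of the CD137 minus spleen and at 158 and 277 CPM in the CD137 plus spleen, with a log2 ratio of -1.44. Arl4c, a small GTPase, was at 98.7 and 255 CPM in the CD137 minus spleen and at 118 and 288 CPM in the CD137 plus spleen, with a log2 ratio of -1.34. Cd7 and Arl4c were thus lower in both libraries. Plac8, named for its placental expression, had a log2 ratio of -1.58, Nsd3, a histone methyltransferase, -0.89, and Bst2, an interferon-induced membrane protein, -0.76. Runx3, the transcription factor of the CD8 lineage, had a log2 ratio of -0.99, which rests on 12 and 1 corrected counts in the CD137 minus and CD137 plus multi-marker cells and was -0.60 in the CD137 minus library alone. Its ratio was 0.22 when cells with at least 3 markers were set against cells with none.

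Ly6a, the stem cell antigen Sca-1, ended the 12 with Ahnak, a scaffold protein, and S100a6, a calcium-binding protein. Ly6a had a log2 ratio of -0.53, with 1 corrected count in the CD137 plus multi-marker cells and a ratio of -0.09 in the CD137 minus library alone. S100a6 was at -0.95 over both libraries and at -0.41 in the CD137 minus library alone, and Ahnak was at -1.38 and at -0.89. The calls for Ly6a and S100a6 therefore rest on the 14 CD137 plus cells. Among cells without a Ccl5 value the ratio was 0.21 for Ahnak and 1.49 for S100a6, so these 2 directions depend on which cells are compared.

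**Figure D2:**
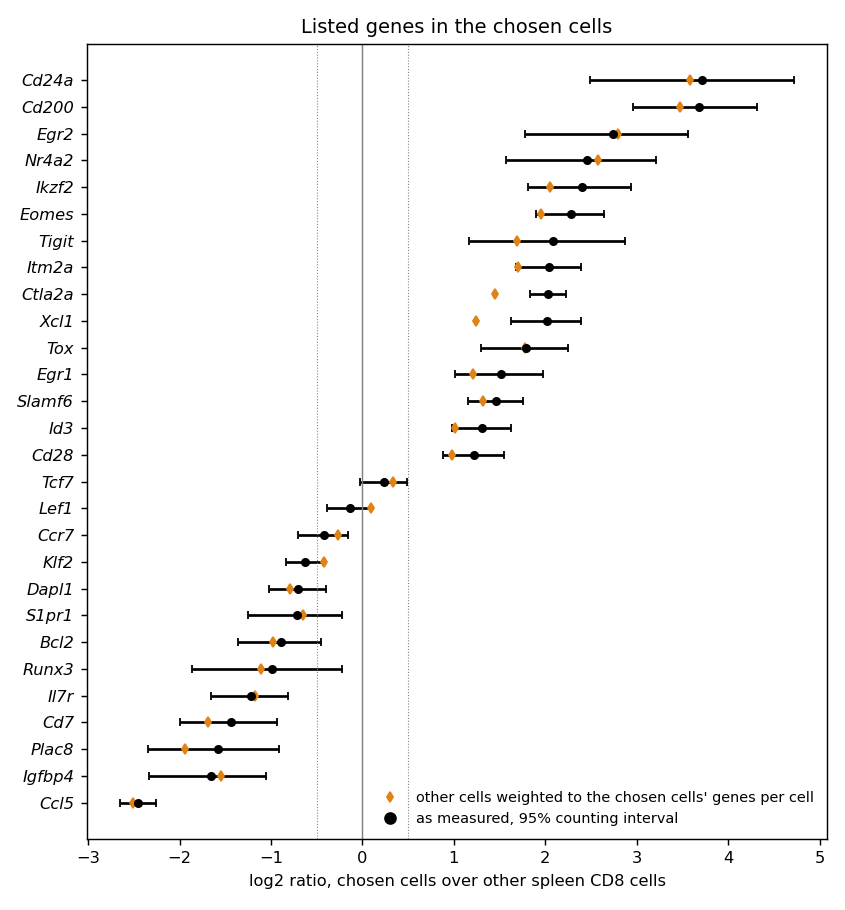
Log2 ratio of multi-marker cells over other spleen CD8 cells (x axis) for listed genes (y axis), over both libraries, with bars for the 95% counting interval and diamonds for other cells weighted to the same genes per cell. Dotted lines mark the size of 0.5 used for a call. Eomes at 2.28, Itm2a at 2.04 and Slamf6 at 1.46 lie to the right, Tcf7 at 0.24 and Lef1 at -0.14 lie near 0, and Il7r at -1.22 and Ccl5 at -2.45 lie to the left. Cd24a, Cd200, Egr2, Nr4a2, Ikzf2, Tigit and Xcl1 were below the level needed to be measured and have no call.

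Genes of thymocytes and recent emigrants gave a mixed picture, and list counts are to be read beside the 18.4% higher and 4.17% lower of all measured genes. Of the 15 listed, 11 had a column in the table and 4 were measured. Of these 4, Itm2a, Tox and Slamf6 were higher and Themis was lower. Their median log2 ratio was 1.62, against 0.18 for all measured genes. Itm2a and Tox passed the filter by being high in multi-marker cells. Tox was at 27.9 and 44.8 CPM in other CD137 minus and CD137 plus cells. Ssbp2, at 60.1 and 53.6 CPM in the same sets, missed the filter through 13.1 CPM in CD137 plus multi-marker cells. The median of the 4 genes thus depends on the filter, whose part in it was not tested. Itm2a, a membrane protein induced when thymocytes are selected, was at 220 CPM in multi-marker cells and 48.4 CPM in others of the CD137 minus spleen, and at 105 and 39.3 CPM in the CD137 plus spleen, a log2 ratio of 2.04 (1.68 to 2.39). Themis, a signalling protein of thymocyte selection, was at 41.8 and 66.0 CPM in the CD137 minus spleen and at 52.6 and 87.8 CPM in the CD137 plus spleen, with a log2 ratio of -0.67 whose counting interval runs from -1.48 to 0.04. Cd24a, the heat-stable antigen that marks immature T cells, was the most concentrated of the genes of this list too low to be measured. It had 7 corrected counts in 7 of 63 CD137 minus multi-marker cells, or 26.6 CPM (10.7 to 54.8), against 0.84 CPM (0.364 to 1.66) in others. In the CD137 plus spleen Cd24a was at 0 in multi-marker cells, with an upper limit of 48.5 CPM, and at 0 in others.

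The remaining thymic genes did not stand out in the chosen cells. Ccr9, the gut and thymus homing receptor of recent emigrants, was at 57.0 and 48.2 CPM in multi-marker and other cells of the CD137 minus spleen and at 52.6 and 30.4 CPM in the CD137 plus spleen. Ssbp2, a DNA-binding protein of early lymphocytes, was at 45.6 and 60.1 CPM in the CD137 minus spleen. Dntt, the terminal transferase of cells that rearrange receptors, had 1 corrected count over all multi-marker cells, and Cd4, which double-positive thymocytes express, also had 1. Rag1, Rag2, Ptcra and Arpp21 had no column and could not be analysed. Itm2a and Tox, and Cd24a in part of the CD137 minus cells, were higher, the direction of the working label of immature cells. Itm2a and Tox passed the filter by being high in the chosen cells, so they lend this label no support. In the CD137 plus spleen Itm2a rests on 8 corrected counts in 4 cells and Tox on 9 in 5 cells. Ccr9, Ssbp2, Dntt and Cd4 did not go with the label, and neither did Themis, which was called lower. The cells are therefore called by their markers and not by a stage.

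Late maturation genes showed both directions. Of 13 measured, 4 were lower (Il7r, Klf2, S1pr1 and Ifngr1) and 1, Cd28, was higher, with a median log2 ratio of -0.22. Cd28, the costimulatory receptor, was at 243 CPM in multi-marker cells and 97.2 CPM in others of the CD137 minus spleen, and at 171 and 95.02 CPM in the CD137 plus spleen, a log2 ratio of 1.22. Ifngr1, the interferon-gamma receptor chain, had a log2 ratio of -0.57, from 98.7 and 167 CPM in the CD137 minus spleen and 184 and 206 CPM in the CD137 plus spleen, where the difference fell short of the size used for a call. Among the MHC class I genes that rise with maturation, H2-Q7, which encodes Qa-2, had a log2 ratio of -0.22 and its near-identical neighbour H2-Q6 had 0.37, and reads of the pair may be split between them.

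Genes of naive recirculating cells were in part lower in multi-marker cells. Of 13 measured, 5 were lower (Il7r, Klf2, S1pr1, Igfbp4 and Dapl1) and none was higher, with a median of -0.29, or -0.47 relative to all measured genes. Klf2, the transcription factor that drives S1pr1, was at 661 CPM in multi-marker cells and 986 CPM in others of the CD137 minus spleen, and at 447 and 828 CPM in the CD137 plus spleen, a log2 ratio of -0.63 (-0.84 to -0.44). Weighted for genes per cell it was -0.42, short of the size used for a call. S1pr1, the receptor for exit from lymphoid organs, was at 91.1 and 152 CPM in the CD137 minus spleen and at 105 and 165 CPM in the CD137 plus spleen, with a log2 ratio of -0.71. Dapl1, a gene of naive and early memory CD8 cells, had a log2 ratio of -0.70 over both libraries. Bach2, the gene of the list below the level needed to be measured, had a log2 ratio of 0.79 (0.10 to 1.41) and no call. Other measured genes of the list did not reach the size used for a call. Ccr7, the chemokine receptor for lymph node entry, had a log2 ratio of -0.42, Lef1, a naive T cell transcription factor, -0.14, and Tcf7, the TCF-1 transcription factor, 0.24.

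Of the progenitor or stem-like list 7 of 14 genes were measured, of which Slamf6 and Id3 were higher and Il7r and Cd7 lower, with a median log2 ratio of 0.24, beside 18.4% higher and 4.17% lower among all measured genes. Id3, an inhibitor of E proteins that marks stem-like and memory precursor cells, was at 254 CPM in multi-marker cells and 102 CPM in others of the CD137 minus spleen, and at 184 and 74.7 CPM in the CD137 plus spleen, a log2 ratio of 1.31 (0.98 to 1.62). The genes of this list below the limit were nevertheless unevenly placed. Cd200, an immune inhibitory ligand, was at 68.4 CPM (40.5 to 108) in multi-marker cells and 3.48 CPM (2.40 to 4.89) in others of the CD137 minus spleen, and had 1 corrected count in CD137 plus multi-marker cells. Ikzf2, the transcription factor Helios, was at 91.1 and 15.2 CPM in the CD137 minus spleen and at 39.4 and 10.98 CPM in the CD137 plus spleen. Helios RNA was in 20.6% of CD137 minus multi-marker cells and 4.45% of others, or 17.5% and 3.65% after thinning. Xcl1, the chemokine for cross-presenting dendritic cells, was at 205 and 41.4 CPM in the CD137 minus spleen and at 39.4 and 38.4 CPM in the CD137 plus spleen, so the libraries differed, and this difference was not tested.

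Ccl5 was low in multi-marker cells while Eomes was high, and effector genes were too low to be measured. Of 9 memory genes measured, Ccl5, Il2rb and Bcl2 were lower and Eomes was higher, with a median log2 ratio of -0.40. Il2rb, the chain of the interleukin-2 and interleukin-15 receptors, had a log2 ratio of -0.68, and Bcl2, the survival factor, had -0.89. None of the 12 effector genes was abundant enough to be measured. They summed to 57.0 CPM in multi-marker cells and 232 CPM in others of the CD137 minus spleen, and to 210 and 839 CPM in the CD137 plus spleen. Gzma, a granzyme of cytotoxic cells, was at 0 in all 77 cells against 43.2 corrected counts expected. Those expected counts come from few cells, 42 other CD137 minus cells (1.76%) and 49 other CD137 plus cells (10.8%), so about 2.62 multi-marker cells with Gzma would be expected and 0 is close to that. Klrg1, Cx3cr1 and S1pr5, surface receptors of terminal effectors, were also at 0, with 3.15, 4.50 and 4.33 corrected counts expected. The number of cells expected for them was not taken, so these zeros show little. Whether Eomes and Ccl5 lay in the same cells was not tested.

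Multi-marker cells were also counted among cells with and without Ccl5. They were 24 of 1170 CD137 minus cells with a Ccl5 value, 2.05%, and 39 of 1274 without one, 3.06%, with overlapping intervals. In the CD137 plus spleen they were 6 of 324 with Ccl5, 1.85% (0.683 to 3.99%), and 8 of 145 without, 5.52% (2.41 to 10.6%). With cells without a Ccl5 value compared among themselves, Eomes had a log2 ratio of 3.51, Slamf6 of 1.46 and Il7r of -1.41. A cell without a Ccl5 value may still hold the RNA, so the part of Ccl5-expressing cells in these ratios was not tested further.

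Genes induced by the T cell receptor were mostly too low to be measured, and Egr1 was the single one of 4 measured that was higher. Egr1 passed the filter by being high in multi-marker cells, so its call depends in part on the filter. Egr2, a transcription factor of strong or tolerising signals, was at 38.0 CPM in multi-marker cells and 4.43 CPM in others of the CD137 minus spleen, and had 1 corrected count in CD137 plus multi-marker cells. Nr4a2, an orphan nuclear receptor of the same response, was at 49.4 and 4.43 CPM in the CD137 minus spleen and at 0 and 12.2 CPM in the CD137 plus spleen. Tigit, an inhibitory receptor, was at 41.8 and 4.64 CPM in the CD137 minus spleen and at 13.1 and 17.7 CPM in the CD137 plus spleen. For Nr4a2 and Tigit the excess was thus seen in the CD137 minus library alone, and the difference between libraries was not tested. Egr2, Nr4a2 and Tigit are examples picked from the genes of this list too low to be measured. Others of them, such as Nt5e and Rnf128, showed no such excess. Cd69 and Cd5, measured genes of the same response, had log2 ratios of -0.09 and 0.38. Of 6 genes of dissociation stress measured none was higher and 1, Ier2, was lower, with a median log2 ratio of 0.01.

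Genes of the T cell receptor complex were measured with and without the CD8 genes. Cd8b1, which the choice of cells used, was at 1063 CPM in multi-marker cells and 1849 CPM in others of the CD137 minus spleen, and at 881 and 1766 CPM in the CD137 plus spleen. The median cell had 4 corrected counts of Cd8b1 against 7 in other CD137 minus cells, and 4.5 against 9 in the CD137 plus spleen. Cd8a was at 399 and 516 CPM in the CD137 minus spleen and at 644 and 514 CPM in the CD137 plus spleen. Apart from the CD8 genes, 2 of 9 measured genes were higher and none lower, a share of higher genes near the 18.4% of all measured genes. Trac, the constant part of the alpha chain, was at 395 and 252 CPM in the CD137 minus spleen and at 381 and 157 CPM in the CD137 plus spleen, with a log2 ratio of 0.76. Trbc1, the first beta constant gene, had a log2 ratio of 0.69. Cd3e and Cd3d, signalling chains of the complex, had ratios of 0.02 and 0.05.

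Proliferation genes and lineage factors gave few calls. Of 3 proliferation genes measured none was called, and Mki67 was at 0 in multi-marker cells with 1.01 corrected counts expected. Below the level needed to be measured, the replication genes Mcm5 and Mcm3 had log2 ratios of 1.13 (0.26 to 1.89) and 0.92 (0.18 to 1.57). Both are picked examples, and 4 of the 13 listed proliferation genes, Mki67 among them, were at 0 in multi-marker cells. Of 4 lineage factors measured, Tcf3, which encodes E2A proteins, was higher at 0.60 and Runx3 lower, while Bcl11b, needed for T cell identity, was at 0.01. Tcf3 was at 91.1 and 53.0 CPM in multi-marker and other cells of the CD137 minus spleen and at 65.7 and 65.9 CPM in the CD137 plus spleen, so its call rests on the CD137 minus library. Relative to the median of all genes Tcf3 was not called. Of 8 housekeeping genes Pgk1 (0.63) and Gapdh (0.50), both of glycolysis, were higher and none was lower. Relative to the median of all genes none of the 8 was called.

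Levels of named genes in part followed the number of markers in the CD137 minus spleen. Of the 12 genes named as higher, 9 rose at each step over cells with none, 1, 2 and 3 or 4 markers, and Ephx1, Odc1 and Trp53inp1 did not. Of the 12 named as lower, 6 fell at each step, and Plac8, Runx3, Ly6a, S100a6, Bst2 and Cd7 did not. Named genes were picked for their difference between these same cells with at least 2 and with fewer markers. Part of the steps therefore follows from that choice, and these counts are a description. The share of all measured genes that move at each step was not taken. The genes given next were chosen after their values were seen. Eomes was at 30.8 CPM in cells with no marker, 48.0 CPM with 1, 107 CPM with 2 and 420 CPM in the 15 cells with 3 or 4. Itm2a followed the same order at 43.5, 74.6, 132 and 480 CPM for none, 1, 2 and 3 or 4 markers. Slamf6 stood at 99.0, 135, 249 and 405 CPM over the same sets. Among lower genes, Il7r was at 331 CPM with no marker, 284 CPM with 1, 183 CPM with 2 and 30.02 CPM with 3 or 4. Cd8b1 stood at 1899, 1585, 1246 and 525 CPM, and Klf2 at 1005, 888, 768 and 345 CPM over the same sets. Cd24a was at 0.627, 2.00, 10.2 and 75.0 CPM, highest in the 15 cells with most markers. A floor of 3 corrected counts stands at 45.0 CPM in those 15 cells. Il7r was below that floor there and Cd24a not far above it, so these 2 end levels rest on few corrected counts.

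Cells with 1 marker, just outside the limit, thus lay between cells with none and the multi-marker cells for these 7 genes. Genes per cell moved along the same steps, with medians of 1311.5, 1406, 1505.5 and 1893 for none, 1, 2 and 3 or 4 markers. Its part in the steps was not tested. Weighting the other cells to the multi-marker cells' genes per cell left log2 ratios of 1.96 for Eomes, 1.70 for Itm2a, 1.31 for Slamf6, 1.77 for Tox and -1.18 for Il7r.

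**Figure D3:**
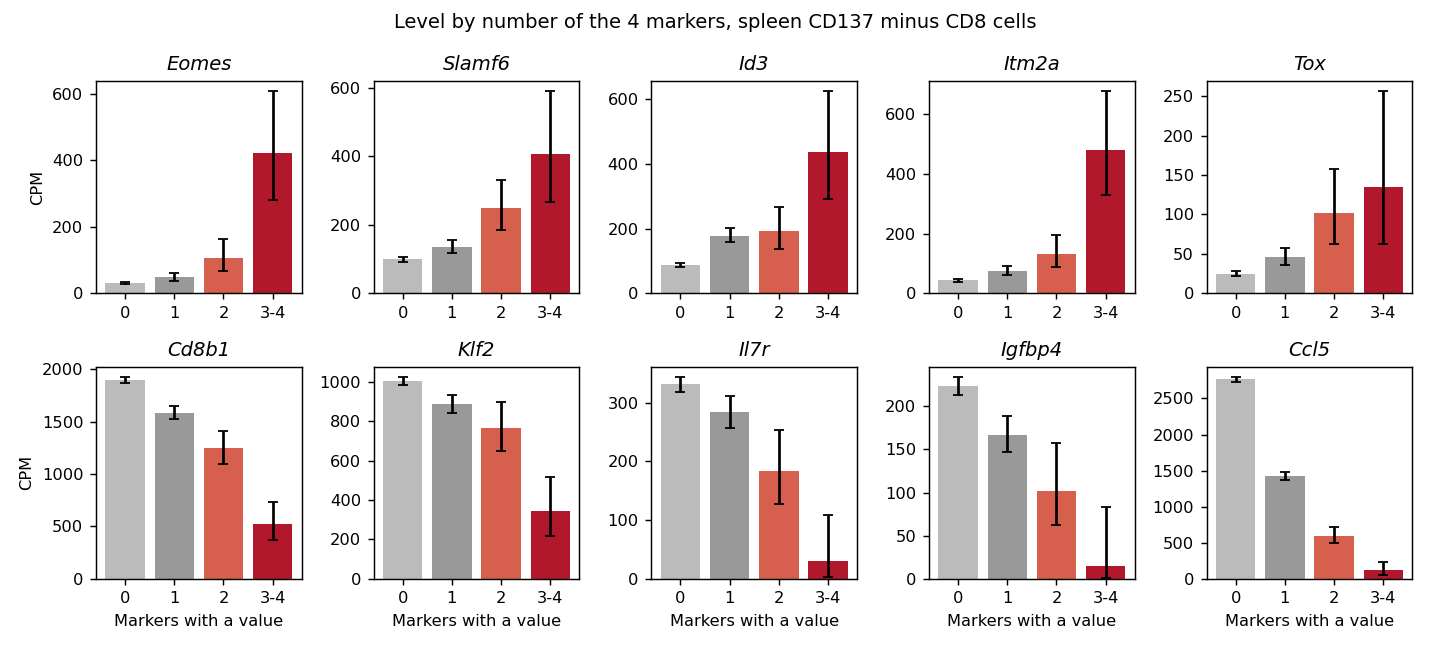
Level in CPM (y axis, from 0) of 10 genes in spleen CD137 minus CD8 cells with 0, 1, 2 and 3 or 4 of the markers (x axis), with bars for the summed level and error bars for its exact 95% counting interval. The upper 5 genes rise to the right, Eomes to 420 CPM, and the lower 5 fall, Il7r to 30.02 CPM. In the last set a floor of 3 corrected counts stands at 45.0 CPM, so Il7r and Igfbp4 are below it there. The sets hold 2010, 371, 48 and 15 cells.

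The chosen cells were not uniform across markers. The 30 cells with Pou2af1 had 292 CPM of Eomes, 906 CPM of Ctla2a, 59.9 CPM of Il7r and 262 CPM of Slamf6. The 29 cells with Sox4 had 130 CPM of Eomes, 602 CPM of Ctla2a, 203 CPM of Il7r and 407 CPM of Slamf6. Cells with Pou2af1 therefore held more Eomes and Ctla2a, and cells with Sox4 more Il7r and Slamf6, though 8 cells had both markers and are in both sets. Cd8b1 was at 809 CPM in the cells with Pou2af1 and 1179 CPM in those with Sox4. Id3 and Tox had their highest levels in cells with Sox4, at 325 and 163 CPM. Cd24a was found in 5 of 30 cells with Pou2af1, 4 of 56 with Myb, 5 of 29 with Sox4 and 7 of 58 with Izumo1r.

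The chosen cells lay partly together in a clustering of spleen CD8 cells made without the 4 markers, Cd8a, Cd8b1, Tnfrsf9 and receptor segment, mitochondrial and ribosomal genes. Of 13 clusters, cluster 5 held 38 of the 77 cells, 49.4% of them against 9.49% of other CD8 cells. This cluster of 307 cells was led by 1700097N02Rik, A630001G21Rik, Tubb2b, Dck and Cd200, and multi-marker cells were 12.4% of it. Under other clustering settings the cluster with most of them held between 126 and 484 cells, and they were between 7.44% and 28.6% of it. It held 33 of 63 CD137 minus and 5 of 14 CD137 plus multi-marker cells. Cluster 12, a group of 29 cells led by Xcl1, Utf1, Nfkbid and Itm2a, was richest, with 10 multi-marker cells or 34.5% (17.9 to 54.3%). Of its 29 cells 28 came from the CD137 minus library. Under other clustering settings the richest cluster held between 27 and 142 cells, and multi-marker cells were between 25% and 37.0% of it. At resolution 1.5 and with another seed it was the same cluster that held most of them.

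Clusters 9, 10 and 13 held none of the chosen cells but were too small to show an absence, since the share of multi-marker cells over all spleen CD8 cells was 2.64%. Cluster 9, led by Gzma, Cx3cr1 and Gzmk, had 0 of 97 cells where 2.56 would be expected at that share, and its upper limit was 3.73%. Cluster 10, led by the interferon-induced genes Isg15 and Ifit3, had 0 of 96 where 2.54 would be expected, and cluster 13, led by Cd74 and H2-Aa, had 0 of 11 where 0.291 would be expected. Cluster 1, the largest and led by Igfbp4 and Ccr9, held 11.7% of multi-marker cells and 23.9% of others. Median genes per cell were 1691 in cluster 5 and 1730 in cluster 12, above the 1362.5 of cluster 1. The clusters keep genes that move with the markers, so these shares are a description. Among the 15 nearest neighbours of a multi-marker cell 17.4% on average were multi-marker cells, against 1.20% for other cells, and 25 of the 77 had none among their neighbours.

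**Figure D4:**
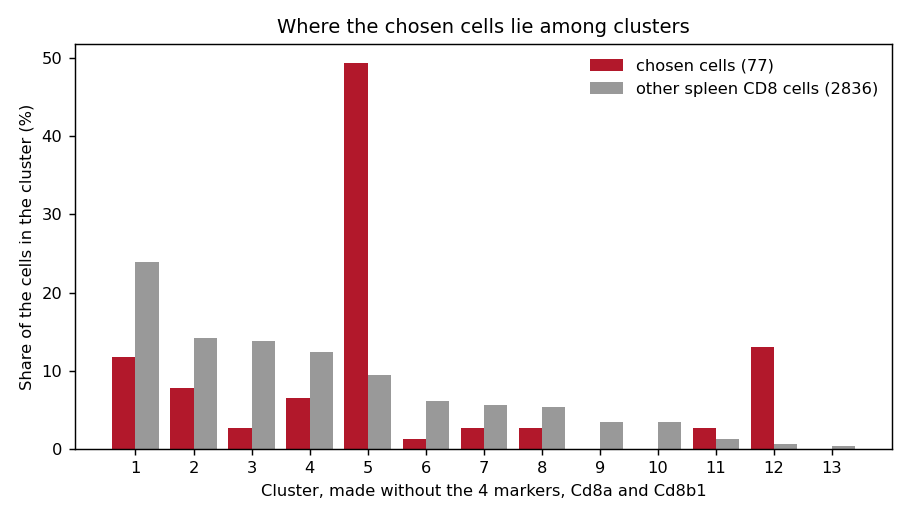
Share of multi-marker cells (red, left of each pair) and of other spleen CD8 cells (grey) that fell in each of 13 clusters made without the 4 markers, Cd8a and Cd8b1 (y axis in %, x axis cluster number). Cluster 5 holds 49.4% of multi-marker cells and 9.49% of others, and clusters 9, 10 and 13, where at most 2.56 would be expected, hold 0.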

How the data were processed

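Spleen cells of 2 libraries were used, with the 2 tumour libraries for the same rule. The deposited table holds natural log values for 6965 cells and 12763 genes. Cell Ranger 3.0.2, Seurat 3.0 and mm10 are named per the submitters' processing notes. The sources used here give neither cell filters nor a normalization. Exponentials minus 1 were whole numbers (relative tolerance 1e-09) with narrow totals per cell, hence corrected counts and no count model. Sums per library were scaled to CPM, and log2 ratios used a pseudocount of 1 CPM, a filter of 50 CPM and a call size of 0.5. Calls were to need each library, but with fewer than 15 chosen cells in the CD137 plus library the observed over expected sum of both was used, as planned for that case. Named are the 12 called genes furthest each way by the mean of both libraries' ratios, without receptor segment, immunoglobulin, mitochondrial, ribosomal protein, haemoglobin, sex-linked, clone-named and choosing genes. Results of 2 genes are not reported here. Examples outside that rule come from the gene lists. Intervals are exact (95%) and cover counting error only. Clustering used Leiden (resolution 1) on 30 principal components and 15 neighbours. No doublet caller was run. The ratios were tested on simulated counts in which all cells of a set in a library shared the same profile. Differences between cells of a set were thus not covered. Python 3.11.15, numpy 2.4.6, scipy 1.17.1, scikit-learn 1.9.0 and leidenalg 0.10.2 were used. The chosen cells and lists were set with earlier results of these data known. Gene loci are from GENCODE on mm10. Alternatives covered depth, gate, markers, filters, pseudocount, other cell types and clustering settings.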

Additional observations from a re-analysis of the deposited data

Results flagged for a closer look

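The same marker rule was met in data that the comparison did not use. Spleen cells without a CD8 value numbered 20 in the CD137 minus library, and 6 of them, or 30% (11.9 to 54.3%), had at least 2 of the 4 markers. The CD137 plus spleen had 2 of 4 such cells. Of these 8 cells 5 had Eomes, 6 Id3, 6 Tox and 1 Ikzf2, against 5, 4, 2 and 8 of the 16 spleen cells without a CD8 value that had fewer markers. Cd3e was in 8 of 8 and 15 of 16, and Cd4, Foxp3, Trdc and Cd79a were in none of either set. In tumour 16 of 1251 CD137 minus CD8 cells met the rule, 1.28% (0.733 to 2.07%), and 18 of 2747 CD137 plus CD8 cells, 0.655% (0.389 to 1.03%).

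These 3 measured genes moved by at least 0.5 in opposite directions in the 2 spleen libraries, multi-marker over other cells, beyond the counting interval in each, and these differences were not tested. Sh2d2a had log2 ratios of 0.64 in the CD137 minus library and -1.81 in the CD137 plus library, with 3 corrected counts in the CD137 plus cells. Cdk11b had -0.81 and 1.10. Trbv3, a receptor segment, had 0.82 and -3.16, from 59 and 1 corrected counts.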

How the results depend on the processing

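No paired analysis was possible because each group is 1 library. The share in the CD137 minus spleen was 1.65% after thinning, 0.614% with at least 3 markers, and 1.31%, 1.84% and 1.19% with Myb, Sox4 and Izumo1r left out in turn. In the CD137 plus spleen it was 0.213% with at least 3 markers, 0.853% without Myb and 0.640% without Izumo1r. Counts of higher and lower genes were 1221 and 209 with a filter of 20 CPM, 117 and 44 with 100 CPM, 707 and 215 for at least 3 markers against none, and 738 and 168 without Izumo1r. Higher genes numbered 212 after weighting for genes per cell and 612 among cells without a Ccl5 value, where Ccl5 itself has no ratio. Chosen after seeing the data, the CD137 plus library alone gave 848 and 284, and ratios relative to the median gave 190 and 199. Of 263 values of the 24 named genes under the 11 alternatives that recompute their ratios, 257 kept their sign. The exceptions were Runx3 at 0.22 and Ly6a at 0.67 (at least 3 markers against none), Ahnak at 0.21 and S100a6 at 1.49 (no Ccl5), Ly6a at 0.27 (Myb left out) and Runx3 at 0.26 (Izumo1r left out). The causes were not tested. Medians of the naive, thymic, progenitor, maturation and memory lists kept their sign under the weighting and a pseudocount of 10 CPM. The cluster with most multi-marker cells held 45.5 to 49.4% of them under the 5 clustering settings, though that cluster's size ranged from 126 to 484 cells. The 14 CD137 plus cells and a floor of 39.4 CPM there limit each value of that library.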

Other observations

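Receptor beta segments were chosen for mention after their values were seen. Trbv12-2 was at 387 CPM in multi-marker cells and 146 CPM in other CD8 cells of the CD137 minus spleen, and at 302 and 134 CPM in the CD137 plus spleen. A value was present in 20.6% of multi-marker cells and 14.7% of others in the CD137 minus spleen, and in 28.6% and 12.5% in the CD137 plus spleen. Trbv17 was at 254 and 122 CPM in the CD137 minus spleen and at 644 and 83.6 CPM in the CD137 plus spleen, where 1 of 14 multi-marker cells held it.

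Irf8, a transcription factor of B and dendritic cells that activated T cells can also express, was at 57.0 CPM in multi-marker cells and 14.7 CPM in other cells of the CD137 minus spleen, and at 26.3 and 29.6 CPM in the CD137 plus spleen. Itgax, which encodes CD11c, was at 30.4 and 2.74 CPM in the CD137 minus spleen and had 1 corrected count in CD137 plus multi-marker cells. Ctla4, an inhibitory receptor, was at 34.2 and 5.59 CPM in the CD137 minus spleen and at 39.4 and 12.2 CPM in the CD137 plus spleen.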
